A study of Mus musculus with 12 samples.

Results

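The genes described here encode the channels that let calcium into the cytosol, the sensors that open some of them, and the pumps that remove it again. They were taken by gene symbol, which gave 64 of the 36512 genes in the count table. These were 10 pore subunits of voltage-gated calcium channels, 4 alpha2delta, 4 beta and 8 gamma family genes, 3 ryanodine receptors, 3 inositol trisphosphate (IP3) receptors, 2 STIM sensors, 3 Orai pores, 6 TRPC, 8 TRPM and 6 TRPV channels, 3 SERCA pumps and 4 PMCA pumps. The series concerns the lineage of thermogenic perivascular fat. Poly(A) RNA was sequenced from cells that had been separated by flow cytometry out of the aorta and the fat around it in wild type CD-1 mouse pups at postnatal day 3. Males and females were mixed, and no group carried a transgene or received a treatment according to the labels. There were 4 populations with 3 libraries each, namely progenitor cells, intermediate cells, preadipocytes and smooth muscle cells, whose sorting gates the labels do not give. The labels do not say whether the libraries of a population stem from different litters or different sorts. A p-value here therefore measures the spread between libraries, which may be technical.

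Calcium enters a smooth muscle cell mainly through L-type voltage-gated channels, which open on depolarisation. Hormones and nerve signals release it from the sarcoplasmic reticulum through IP3 receptors, and ryanodine receptors release it in sparks. When the store empties, STIM proteins in the reticulum membrane open Orai channels in the plasma membrane. TRP channels admit calcium, sodium or magnesium in response to receptors, stretch, temperature or metabolites. SERCA pumps refill the store, and PMCA pumps expel calcium from the cell. Brown and beige fat cells also use ryanodine receptors and SERCA pumps, whose futile cycling is a known route of heat production.

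Libraries held 11701825 to 17123109 counts, so a count of 0 allows a level of up to 0.175 to 0.256 CPM (counts scaled to a common library size), for counting error only. The sums of 8 smooth muscle marker genes were highest in smooth muscle libraries, at 7304 to 7932 CPM, with 937.2 to 1276 in intermediate and at most 215.3 CPM in the other libraries. The 8 progenitor and fibroblast markers summed to 8144 to 9515 CPM in smooth muscle, 41880 to 42120 in progenitor, 70620 to 77080 in intermediate and 3476 to 6609 CPM in preadipocyte libraries. The 7 pericyte markers summed to 1663 to 2003 CPM in smooth muscle libraries and to at most 1471 CPM elsewhere. The 8 adipocyte markers summed to 4695 to 7500 CPM in preadipocyte libraries and to at most 1894 CPM elsewhere. The smooth muscle libraries also held 798.9 to 1088 CPM of 8 neuron markers, against at most 165.3 CPM elsewhere. Their 6 Schwann cell markers summed to 95.48 to 118.4 CPM against at most 19.17, and their 5 mesothelial markers to 984.3 to 1353 CPM against at most 175.8. No marker of the neuron, Schwann cell and mesothelial lists was at 0 in smooth muscle libraries. Olfactory and vomeronasal receptor genes, 1153 genes known from sensory neurons of the nose, held 745.6 to 1080.3 CPM by library size in smooth muscle libraries, against 128.5 to 330.8 in intermediate libraries, 39.6 to 200.6 in preadipocyte libraries and 47.4 to 101.9 in progenitor libraries. Red blood cell genes reached 16220 CPM in preadipocyte replicate 3, against 989.4 CPM in the lowest preadipocyte library.

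The 64 genes together held 1792 to 1960 CPM by library size in smooth muscle libraries and 962 to 1243 CPM in the other libraries. On that scale the median log2 fold changes of all genes tested in smooth muscle were 0.53, 0.58 and 0.41 against progenitor, intermediate and preadipocyte libraries. After scaling by the trimmed mean of M values (TMM) they were 0.09, 0.10 and 0.35. The sums of the 64 genes are not corrected for that shift. After TMM scaling, 30 of the 64 had a population mean of at least 10 CPM, 30 peaked between 1 and 10 CPM, and 4 stayed under 1 CPM in every population. The filter on low counts kept 61 genes, leaving out Cacng1, Cacng6 and Cacng8. Among these 61, the highest mean was in smooth muscle for 44, in intermediate for 10, in progenitor for 5 and in preadipocyte libraries for 2. Among the 30 genes at 10 CPM or more, 18 were highest in smooth muscle. The share of all genes tested with their highest mean in smooth muscle was not computed, so these counts have no background beside them. Receptor genes were also densest in smooth muscle libraries, at 1.9982 to 2.7787 counts per kb of exon against 0.1354 to 0.946 in the others. The part of that density in these counts was not tested. Pools of sorted cells were measured, so fewer cells of a type and less RNA per cell cannot be told apart. By edgeR's quasi-likelihood F test with Benjamini-Hochberg adjustment over all 21285 genes tested, 57 of the 61 (93.4%) differed among the populations, where 79.8% of all genes tested did. The remaining 4 were Atp2a2 (adjusted p = 0.195), Trpm7 (0.0909), Trpc5 (0.166) and Trpm3 (0.386).

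**Figure D1:**
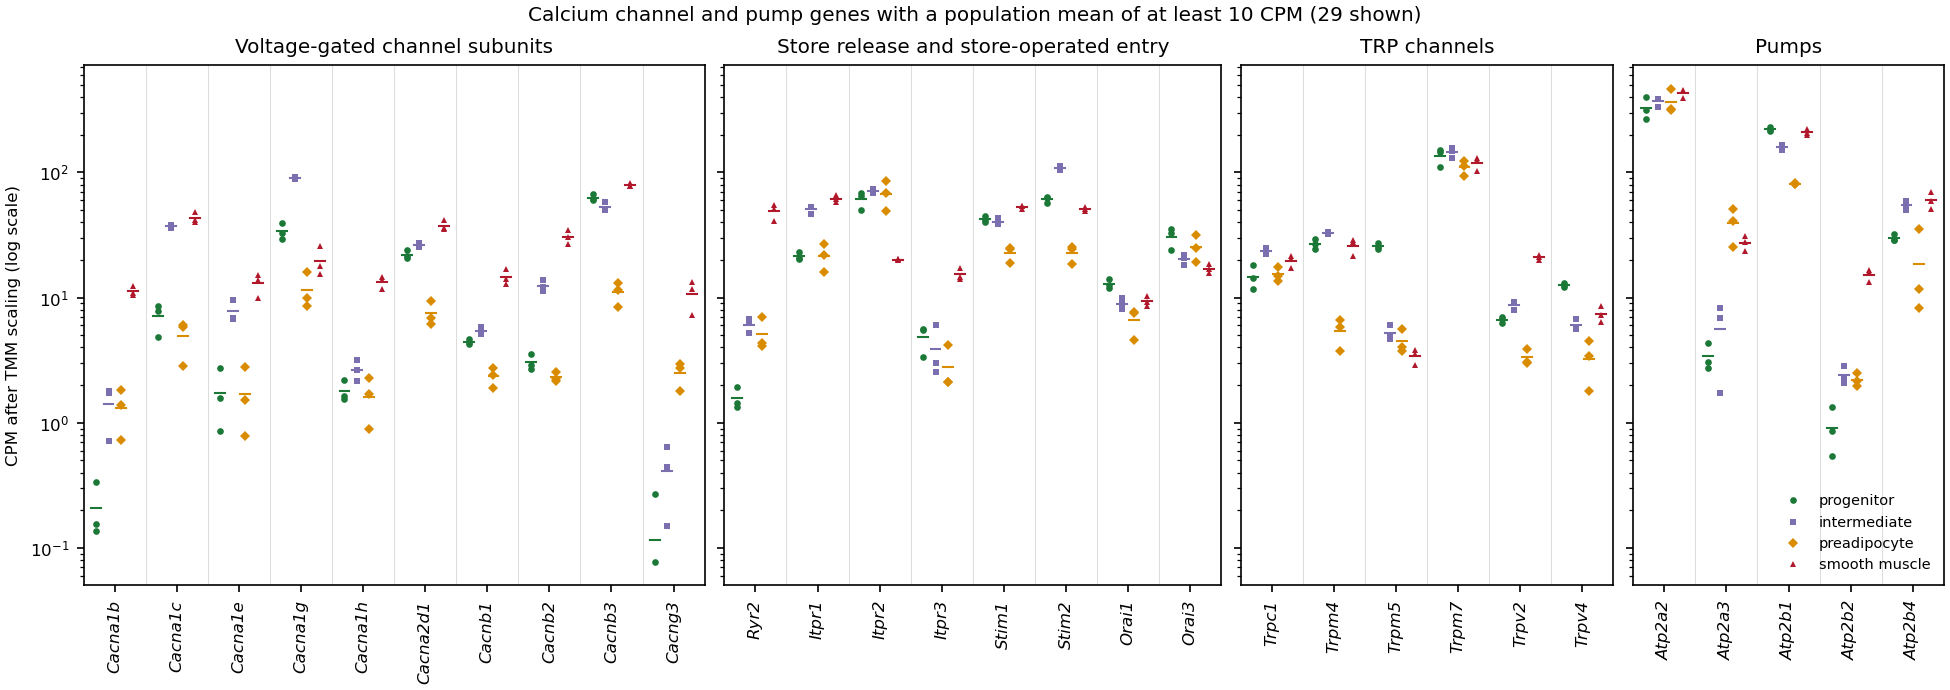
CPM after TMM scaling (log scale) of 29 of the 30 genes with a population mean of at least 10 CPM, 1 point per library and a short line at each population mean (n = 3). Smooth muscle points lie above the rest for Ryr2, Cacna1b, Cacna1h and Atp2b2, and below them for Itpr2. The progenitor library with a Cacng3 count of 0 is not drawn.

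Pairs of populations were then compared, and each count is read against the share of all genes tested. In smooth muscle, 44 of the 61 differed from progenitor libraries, 39 higher and 5 lower, and 54.1% of all genes tested did, 30.5% higher and 23.6% lower. From preadipocyte libraries 49 differed, 47 higher and 2 lower, with a background of 66.6%, 40.7% higher and 25.9% lower. From intermediate libraries 29 differed, 25 higher and 4 lower, with a background of 28.8%, 15.7% higher and 13.1% lower. Leaving out progenitor replicate 2, or any 1 of the intermediate libraries, raised the 5 genes lower than in progenitor libraries to 9, and with no filter on low counts the split was 34 higher and 10 lower. Against preadipocyte libraries the number lower was 1 to 4 with 1 library left out. The median log2 fold changes of the 61 were 1.84, 2.11 and 0.83 in these 3 comparisons, beside 0.09, 0.35 and 0.10 over all genes tested. All 3 share the smooth muscle libraries. Intermediate libraries had 19 genes higher and 4 lower than progenitor libraries, 23 of the 61, where 27.6% of all genes tested differed, 14.1% higher and 13.4% lower. Without intermediate replicate 2 that was 12 higher and 4 lower. Preadipocyte libraries had 3 higher and 31 lower than intermediate libraries, 34 of the 61, with a background of 57.1%, 26% higher and 31.1% lower. Between preadipocyte and progenitor libraries 24 differed, 8 higher and 16 lower, with a background of 50.9%, 25.1% higher and 25.9% lower. With library size alone as the scale these splits became 6 higher and 24 lower against intermediate, and 16 higher and 14 lower against progenitor libraries. Of all 21285 genes tested, 7760 were on this scale higher and 4233 lower against intermediate, and 7857 higher and 3773 lower against progenitor libraries. That scale moved the median of all genes tested from 0.04 to 0.43 for preadipocyte against progenitor and from -0.24 to 0.19 for preadipocyte against intermediate libraries.

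In smooth muscle libraries 19 of the 61 (31.1%) were higher than in each of the other 3 populations, where 10.9% of all genes tested were. By the size of their smallest fold change these included Ryr2, Cacna1b, Trpc6, Atp2b2, Cacna2d2, Trpc4, Cacna1h, Cacng3, Trpm6, Trpv6, Cacnb4, Cacng2, Itpr3, Cacnb1, Cacnb2, Trpv2, Ryr3 and Cacna2d1. With library size alone as the scale 30 were, including these 19. Of all 21285 genes tested, those higher in smooth muscle rose on that scale from 6501 to 9683 against progenitor and from 3346 to 9321 against intermediate libraries. Against preadipocyte libraries they rose from 8672 to 8975. The share of all genes higher than in each other population was not computed on that scale. The only gene lower than in each of the other 3 was Itpr2, 1.64% of the 61 beside 3.64% of all genes tested. The receptor genes give a density of counts per kb of exon against which low members can be read. In smooth muscle libraries 25 of the 64 lay under 3 times that density and 7 under it, against 25 and 1 in intermediate, 18 and 6 in progenitor and 13 and 3 in preadipocyte libraries. Of the 19, the 5 under 3 times the density were Cacna2d2, Trpc4, Trpv6, Cacnb4 and Cacng2, and 14 were at 3 times or more. With an even background of that density subtracted, 17 of the 19 were still called, without Cacng2 and Trpv6, and Cacnb3 and Stim1 were added. Leaving out 1 library at a time, 5 of the 19 lost the call at least once. Cacng2 lost it without progenitor replicate 2, any intermediate or any smooth muscle library. Trpv6 lost it without progenitor replicate 2 or 3, intermediate replicate 1 or 3, or any smooth muscle library. Cacna2d1 lost it without progenitor replicate 2, any intermediate library, or smooth muscle replicate 1 or 3. Ryr3 lost it without progenitor replicate 2 or intermediate replicate 1 or 2, and Trpc4 without intermediate replicate 1. With no filter on low counts Cacna2d1, Cacng2, Ryr3 and Trpv6 were not called.

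**Figure D2:**
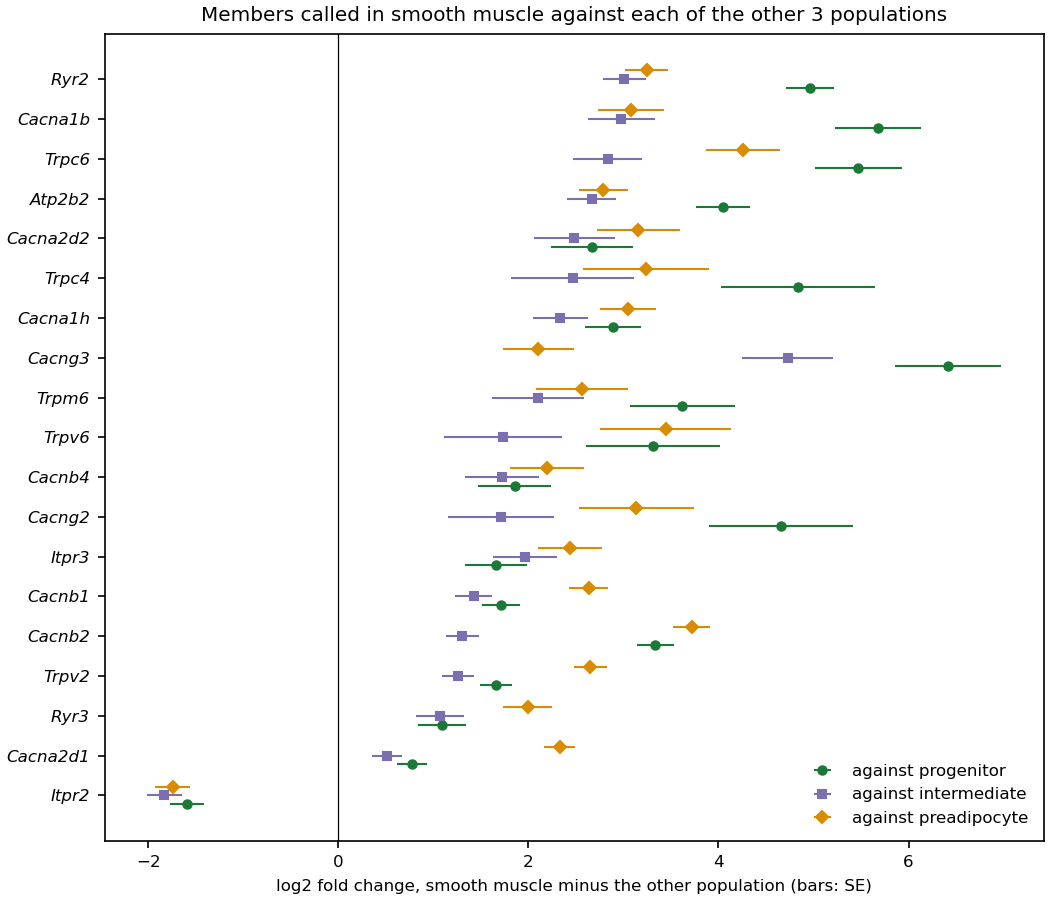
Log2 fold change of smooth muscle against progenitor, intermediate and preadipocyte libraries for 18 of the 19 genes higher and the 1 lower in smooth muscle than in each of them, with bars of 1 SE, in the order of the fold change nearest to 0. Cacng3 against progenitor libraries is the farthest right, at 6.42, and Itpr2 alone lies left of 0.

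**Figure D3:**
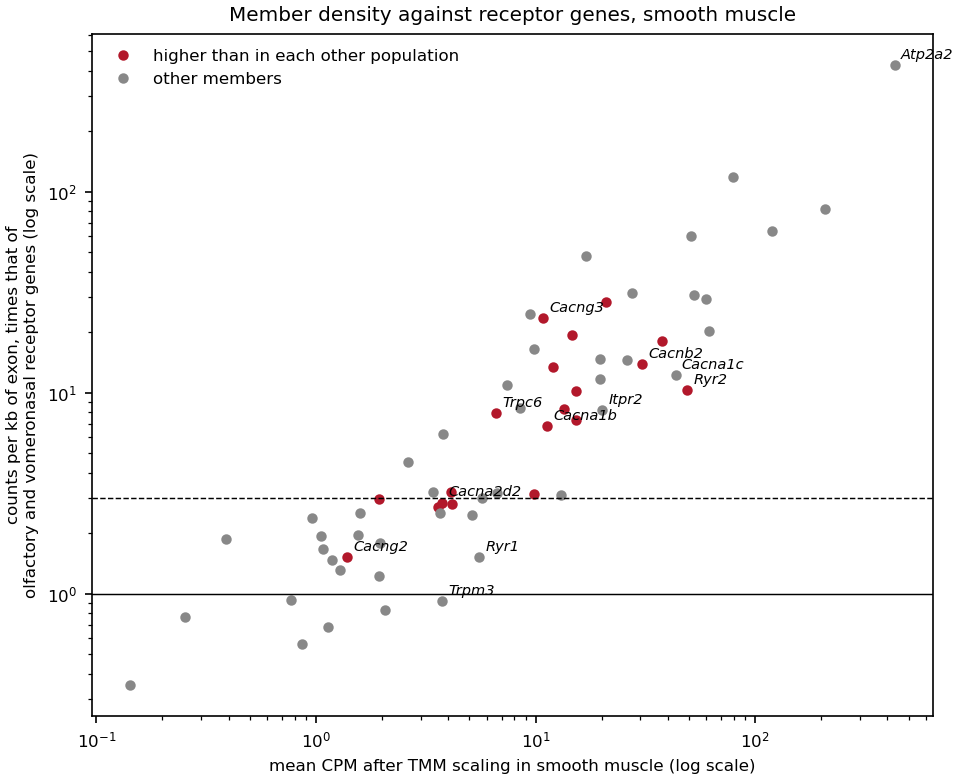
Exon count density of the 64 genes in smooth muscle libraries as a multiple of the density over olfactory and vomeronasal receptor genes (log scale), against the mean CPM (log scale). The dashed line marks 3 times that density, under which 25 genes lie, and the solid line marks 1.

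Promoter sequences are shown for the 3 genes whose smallest fold change in smooth muscle libraries was largest. The windows run from 250 bases before to 50 bases after the start and come from RefSeq on GRCm38.p6, the patched assembly of mm10. Ryr2 is at chr13:12106896-12107195 (minus strand), Cacna1b at chr2:24763103-24763402 (minus strand) and Trpc6 at chr9:8543892-8544191 (plus strand). Each is written 5′ to 3′, with motif matches in capitals.
Ryr2: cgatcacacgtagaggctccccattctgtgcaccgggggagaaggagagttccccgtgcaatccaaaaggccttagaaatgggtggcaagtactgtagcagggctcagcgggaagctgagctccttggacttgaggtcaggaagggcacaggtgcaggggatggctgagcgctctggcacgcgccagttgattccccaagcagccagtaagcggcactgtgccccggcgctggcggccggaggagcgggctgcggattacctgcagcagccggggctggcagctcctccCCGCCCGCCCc
Cacna1b: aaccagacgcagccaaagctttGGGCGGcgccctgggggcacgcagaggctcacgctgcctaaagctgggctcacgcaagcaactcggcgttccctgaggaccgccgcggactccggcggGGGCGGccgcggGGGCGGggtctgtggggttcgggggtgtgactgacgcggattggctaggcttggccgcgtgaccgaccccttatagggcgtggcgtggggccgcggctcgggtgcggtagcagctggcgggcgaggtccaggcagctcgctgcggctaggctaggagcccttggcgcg
Trpc6: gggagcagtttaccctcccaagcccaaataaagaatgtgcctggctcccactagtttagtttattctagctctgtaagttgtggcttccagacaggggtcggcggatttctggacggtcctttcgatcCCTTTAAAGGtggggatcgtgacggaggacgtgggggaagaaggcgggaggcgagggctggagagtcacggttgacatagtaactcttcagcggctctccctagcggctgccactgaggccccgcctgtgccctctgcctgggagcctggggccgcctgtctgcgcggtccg
The capitals in Ryr2 and Cacna1b are GC boxes (CCGCCC or GGGCGG, the letters known to bind Sp1 proteins), and those of Ryr2 overlap each other, after the start. The capitals in Trpc6 are a CArG box, the element known to bind serum response factor in many contractile genes, and lie before the start.

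A window was found for 52 of the 64 genes. Some genes have several windows, and a gene is counted where any of them holds the motif. On both strands a CArG box was in 2 of the 52, Trpc6 and Trpv1, in 1.81% of all 27025 genes with a window and in 1.63% of all 32851 windows. A GC box was in 30 of the 52, 38.2% of all genes and 35.66% of all windows. TATAAA was in 6 of the 52, 15.67% of all genes and 13.62% of all windows, and the E box CACGTG in 6, 8.09% and 7.15%. Among the 16 genes with a window that were higher in smooth muscle than in each other population, 1 had a CArG box, 10 a GC box, 2 TATAAA and 1 the E box. These matches describe letters in the windows and not binding.

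The voltage-gated pore subunits form the channel itself and set its type. Cacna1c encodes the L-type pore of the heart and vessels (ENSMUSG00000051331, chromosome 6, 118587240 to 119196418 on mm10). It was at 4.81, 7.87 and 8.57 CPM in progenitor libraries, at 36, 38.2 and 37.3 in intermediate libraries, at 5.78, 2.84 and 6.07 in preadipocyte libraries and at 47.9, 41.9 and 40.3 in smooth muscle libraries. The smooth muscle and intermediate libraries did not overlap with the others, and Cacna1c was higher in smooth muscle by a log2 fold change of 2.61 (SE 0.24, adjusted p = 4.3e-07) against progenitor and 3.14 (SE 0.25, adjusted p = 3.71e-08) against preadipocyte libraries. Against intermediate libraries the value was 0.22 (SE 0.22, adjusted p = 0.491), short of the threshold. Intermediate libraries were 2.38 (SE 0.24, adjusted p = 4.31e-06) above progenitor libraries, and preadipocyte libraries were lower than intermediate libraries, with a log2 fold change of -2.92 (SE 0.25, adjusted p = 7.39e-08). The share of Cacna1c in the summed counts per kb of the 10 pore genes was 23.94% ± 2.07 (SD, n = 3) in smooth muscle libraries, 13.54% ± 0.27 in intermediate libraries, 10.28% ± 3.58 in preadipocyte libraries and 7.11% ± 1.95 in progenitor libraries. The difference of smooth muscle from the other 9 libraries was 13.63 points, without overlap (exact two-sided permutation test, p = 0.00455, the smallest that 220 arrangements give, adjusted p = 0.0182 over 8 families). Without smooth muscle replicate 1, which leaves 55 arrangements, the difference was 12.53 points and missed the threshold (exact permutation test, adjusted p = 0.0727). The p before adjustment was the smallest that 55 arrangements give, so the lost call cannot show whether the difference depended on that library.

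Cacna1g, a T-type pore that opens at low voltage, had another order (ENSMUSG00000020866, chromosome 11, 94408391 to 94474198). It was at 33.1, 39.5 and 29.6 CPM in progenitor libraries, at 88.05, 91.3 and 90.7 in intermediate libraries, at 16.1, 9.97 and 8.63 in preadipocyte libraries and at 15.5, 17.8 and 25.8 in smooth muscle libraries. All 3 intermediate libraries lay above the rest, and smooth muscle and preadipocyte libraries overlapped. In smooth muscle it was lower, with log2 fold changes of -2.19 (SE 0.22, adjusted p = 1.81e-06) against intermediate and -0.79 (SE 0.22, adjusted p = 0.00701) against progenitor libraries. With library size alone as the scale the latter was -0.349, with adjusted p = 0.2. Intermediate libraries exceeded progenitor libraries by 1.40 (SE 0.22, adjusted p = 0.000252), and the log2 fold change of preadipocyte against intermediate libraries was -2.96 (SE 0.23, adjusted p = 2.84e-08). Per kb it was the most abundant pore gene in progenitor, intermediate and preadipocyte libraries, with 71.4%, 68.5% and 50.1% of the family, and held 22.7% in smooth muscle libraries, close to the 23.9% of Cacna1c.

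Cacna1h, the other T-type pore among the abundant genes, was at 1.55, 1.64 and 2.21 CPM in progenitor libraries, at 2.14, 3.16 and 2.63 in intermediate libraries, at 2.27, 1.69 and 0.891 in preadipocyte libraries and at 11.8, 14.7 and 13.8 in smooth muscle libraries. Smooth muscle stood above all others, by 2.34 (SE 0.29, adjusted p = 1.24e-05) against intermediate and 3.05 (SE 0.29, adjusted p = 2.79e-07) against preadipocyte libraries. Cacna1e, the R-type pore, was at 0.854, 1.57 and 2.75 CPM in progenitor libraries, at 6.68, 6.92 and 9.63 in intermediate libraries, at 1.51, 0.786 and 2.79 in preadipocyte libraries and at 15.1, 13.9 and 9.96 in smooth muscle libraries. Smooth muscle and intermediate libraries lay above the rest, and their difference of 0.75 (SE 0.36, adjusted p = 0.138) missed the threshold. Cacna1b, the N-type pore known from nerve endings, was at 0.155, 0.137 and 0.335 CPM in progenitor libraries, at 0.713, 1.804 and 1.73 in intermediate libraries, at 1.84, 0.725 and 1.39 in preadipocyte libraries and at 10.5, 12.3 and 10.9 in smooth muscle libraries (ENSMUSG00000004113, chromosome 2, 24603887 to 24763152). Smooth muscle again stood alone, above progenitor libraries by 5.68 (SE 0.45, adjusted p = 6.14e-08), intermediate by 2.98 (SE 0.35, adjusted p = 8.84e-06) and preadipocyte libraries by 3.08 (SE 0.34, adjusted p = 1.49e-06).

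The other pore genes were under 10 CPM. Cacna1d, a further L-type pore, was at 1.505 to 2.17 CPM in progenitor libraries, at 4.72 to 6.45 in intermediate libraries, at 1.03 to 2.92 in preadipocyte libraries and at 6.23 to 7.46 in smooth muscle libraries, with intermediate and smooth muscle libraries above the others. In the same order it was at 8.08, 7.13, 7.89 and 3.17 times the receptor gene density. Exons of Cacna1d overlap Chdh over 4.7% of their length, and the strand of counting is not given in the sources used here. Cacna1a, the P/Q-type pore of synapses, was at 5.12 to 6.16 CPM in progenitor libraries, at 6.904 to 9.47 in intermediate libraries, at 2.23 to 5.56 in preadipocyte libraries and at 4.95 to 6.96 in smooth muscle libraries. It differed in 1 of the 6 comparisons, lower in preadipocyte than in intermediate libraries, at -1.20 (SE 0.29, adjusted p = 0.00235). Cacna1s, the skeletal muscle L-type pore, reached 3.16 CPM in 1 smooth muscle library, with 20% of its exon length shared with Gm37759. Cacna1f, the L-type pore of the retina, and the T-type Cacna1i stayed at or under 1.88 CPM in every library.

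Accessory subunits bring the pore to the membrane and tune its gating. Of the beta subunits, which bind inside the cell, Cacnb2 is the main partner of the L-type pore in the heart (ENSMUSG00000057914, chromosome 2, 14603088 to 14987908). It was at 3.57, 2.67 and 2.88 CPM in progenitor libraries, at 11.2, 13.9 and 12.1 in intermediate libraries, at 2.16, 2.24 and 2.56 in preadipocyte libraries and at 34.8, 30.2 and 26.99 in smooth muscle libraries. Smooth muscle lay above intermediate libraries, which lay above both other populations. The log2 fold changes in smooth muscle were 3.33 (SE 0.19, adjusted p = 1.91e-09) against progenitor, 1.30 (SE 0.17, adjusted p = 2.53e-05) against intermediate and 3.72 (SE 0.19, adjusted p = 5.53e-10) against preadipocyte libraries. Intermediate libraries were 2.03 (SE 0.19, adjusted p = 1.6e-06) above progenitor libraries and the value for preadipocyte against intermediate libraries was -2.42 (SE 0.19, adjusted p = 3.17e-08). Its share of the beta family was 9.0% ± 1.22 (SD, n = 3) in smooth muscle and 4.21% over the other libraries, a difference of 4.80 points (exact two-sided permutation test, adjusted p = 0.0242). Without smooth muscle replicate 1 it was 4.14 points, short of the threshold (exact permutation test, adjusted p = 0.182).

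Cacnb3, a beta subunit found in many tissues, was the most abundant of the family per kb in all 4 populations, with 76.7% to 92.1% of its counts per kb. It was at 61.5, 67.2 and 60.1 CPM in progenitor libraries, at 58.3, 50.5 and 49.9 in intermediate libraries, at 11.5, 13.1 and 8.36 in preadipocyte libraries and at 77.2, 77.99 and 82.5 in smooth muscle libraries. Preadipocyte libraries lay below all others, with log2 fold changes of -2.52 (SE 0.16, adjusted p = 4.2e-09) against progenitor and -2.27 (SE 0.16, adjusted p = 7.61e-09) against intermediate libraries. Cacnb1, the beta subunit of skeletal muscle channels, was at 4.27, 4.65 and 4.42 CPM in progenitor libraries, at 5.79, 5.41 and 5.09 in intermediate libraries, at 2.43, 2.72 and 1.89 in preadipocyte libraries and at 14.1, 16.9 and 12.8 in smooth muscle libraries, without overlap between smooth muscle and the rest. Cacnb4, known from the brain, was at 0.804 to 1.78 CPM in progenitor libraries, at 0.752 to 2.18 in intermediate libraries, at 0.7799 to 1.03 in preadipocyte libraries and at 3.89 to 4.38 in smooth muscle libraries, and shares 16% of its exon length with A430018G15Rik.

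The alpha2delta subunits sit outside the membrane. Cacna2d1, the form of muscle, was at 21.4, 24.01 and 20.6 CPM in progenitor libraries, at 27.4, 26.5 and 25.5 in intermediate libraries, at 9.34, 6.89 and 6.18 in preadipocyte libraries and at 36.1, 35.4 and 41.4 in smooth muscle libraries. It was the most abundant of its family per kb in every population, lowest in preadipocyte libraries, where the log2 fold change was -1.56 (SE 0.16, adjusted p = 9.69e-07) against progenitor libraries. Cacna2d2 reached 3.31 to 4.16 CPM in smooth muscle libraries and at most 1.05 CPM elsewhere. Cacna2d3 was at 0.479 to 1.09 CPM in progenitor libraries, at 1.54 to 2.33 in intermediate libraries, at 0.279 to 1.08 in preadipocyte libraries and at 3.31 to 4.09 in smooth muscle libraries. Cacna2d4 was at 0.0776 to 0.201 CPM in progenitor libraries, at 1.07 to 1.27 in intermediate libraries, at 0.181 to 1.296 in preadipocyte libraries and at 0.918 to 2.94 in smooth muscle libraries, smooth muscle libraries overlapping intermediate and preadipocyte ones.

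The gamma family holds the channel subunits Cacng1 and Cacng6 and several genes better known as escorts of AMPA-type glutamate receptors in neurons. Cacng3, an escort of this kind, was at 0.0776, 0 and 0.268 CPM in progenitor libraries, at 0.446, 0.1504 and 0.636 in intermediate libraries, at 2.75, 2.96 and 1.78 in preadipocyte libraries and at 7.25, 11.8 and 13.3 in smooth muscle libraries (ENSMUSG00000066189, chromosome 7, 122670492 to 122769393). These are 101, 185 and 188 counts in smooth muscle, 51, 49 and 32 in preadipocyte, 5, 2 and 7 in intermediate and 1, 0 and 4 in progenitor libraries. Smooth muscle was higher by 6.42 (SE 0.56, adjusted p = 1.76e-07) than progenitor and 4.73 (SE 0.48, adjusted p = 1.68e-06) than intermediate libraries, and the fitted size against so few counts depends on the prior count. Cacng4, another escort, was at 0.388 to 1.37 CPM in progenitor libraries, at 1.64 to 3.65 in intermediate libraries, at 1.84 to 8.75 in preadipocyte libraries and at 7.89 to 12.9 in smooth muscle libraries, with the highest preadipocyte library among the smooth muscle ones. Cacng2 reached 1.29 to 1.53 CPM in smooth muscle libraries, 1.52 times the receptor gene density. Cacng5 and Cacng7 reached at most 2.10 and 2.14 CPM in any library. Cacng1, the skeletal muscle subunit, was at 0.0684 to 0.536 CPM over the 12 libraries, and Cacng6 at no more than 4 counts. Cacng8 had 0 counts in all 3 progenitor libraries, which allows up to 0.203 CPM in the shallowest, and at most 4 counts elsewhere.

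Neuron markers were also higher in smooth muscle libraries. Tubb3, a tubulin of neurons, was at 4.58, 7.32 and 5.36 CPM in progenitor libraries, at 5.53, 4.66 and 4.36 in intermediate libraries, at 22.9, 23.2 and 15.04 in preadipocyte libraries and at 168, 227 and 218 in smooth muscle libraries. Dbh, which makes noradrenaline, was at 0.3105, 0.137 and 0.6698 CPM in progenitor libraries, at 4.19, 3.01 and 1.73 in intermediate libraries, at 24.2, 19.6 and 14.1 in preadipocyte libraries and at 114, 148 and 154 in smooth muscle libraries. All 8 neuron markers were higher in smooth muscle than in each other population, and all 8 were higher in preadipocyte than in intermediate libraries. In that comparison the log2 fold change of Cacng3 was 2.62 (SE 0.50, adjusted p = 0.00034). For Cacna1b it was -0.10 (SE 0.38, adjusted p = 0.831) and for Ryr2 -0.23 (SE 0.22, adjusted p = 0.387), both short of the threshold. Cacna1b was at 2.26 times the receptor gene density in intermediate and 6.53 times in preadipocyte libraries, and Ryr2 at 3.33 and 8.76 times. These fold changes are not corrected for that density. The part of neuron RNA in the levels of Cacng3, Cacna1b, Ryr2, Cacng2, Cacng4, Atp2b2 and Trpv1 was not tested.

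**Figure D4:**
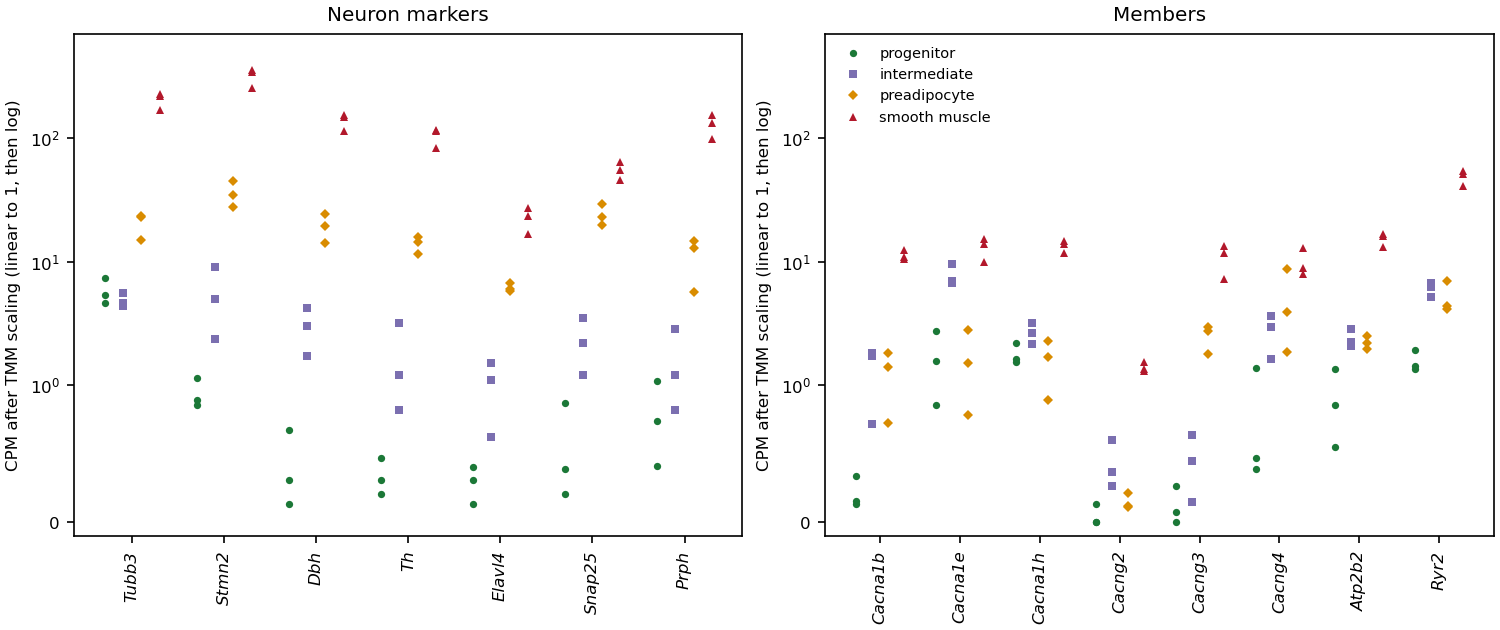
CPM after TMM scaling of 7 of the 8 neuron markers and of 8 calcium genes in each library (1 point per library, axis linear to 1 and logarithmic above). Each plotted neuron marker is higher in preadipocyte than in intermediate libraries, as is Cacng3. Preadipocyte and intermediate points mingle for Cacna1b, Atp2b2 and Ryr2. In intermediate libraries these genes lay at 2.26, 3.01 and 3.33 times the receptor gene density, and in preadipocyte libraries at 6.53, 8.48 and 8.76 times.

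Ryanodine receptors are giant release channels of the store, opened by calcium itself. Ryr2, the cardiac form, which also makes calcium sparks in vessels, was at 1.94, 1.44 and 1.34 CPM in progenitor libraries, at 6.24, 6.77 and 5.18 in intermediate libraries, at 7.02, 4.11 and 4.34 in preadipocyte libraries and at 54.4, 51.4 and 41.2 in smooth muscle libraries (ENSMUSG00000021313, chromosome 13, 11553102 to 12106945). Smooth muscle lay above the other libraries, and progenitor libraries lay below all others. The log2 fold changes in smooth muscle were 4.96 (SE 0.26, adjusted p = 5.45e-10) against progenitor, 3.01 (SE 0.22, adjusted p = 6.26e-08) against intermediate and 3.24 (SE 0.22, adjusted p = 7.72e-09) against preadipocyte libraries. The 10 cardiac muscle markers, none of them at 0 in smooth muscle libraries, summed to 18.22 to 30.57 CPM in progenitor libraries, 26.89 to 63.68 in intermediate libraries, 134.5 to 311.3 in preadipocyte libraries and 41.46 to 66.48 CPM in smooth muscle libraries. In smooth muscle 9 of them were higher than in progenitor and 2 higher than in intermediate libraries, and 1 was higher and 7 lower than in preadipocyte libraries. Their part in Ryr2 was not tested. Ryr3, found at low levels in many tissues, was at 4.04 to 5.09 CPM in progenitor libraries, at 4.37 to 5.09 in intermediate libraries, at 1.51 to 3.17 in preadipocyte libraries and at 8.65 to 12.1 in smooth muscle libraries, and 4.8% of its exon length overlaps Aven, which was at 9.22 to 12.5 CPM in smooth muscle and 11.8 to 27.4 CPM in the other libraries. Ryr1, the skeletal muscle form, was at 0.155 to 1.47 CPM in progenitor libraries, at 2.36 to 3.83 in intermediate libraries, at 0.604 to 1.11 in preadipocyte libraries and at 4.45 to 7.25 in smooth muscle libraries, 1.52 times the receptor gene density in smooth muscle libraries. Skeletal muscle markers summed to 27.55 to 33.40 CPM there and to at most 17.82 CPM elsewhere, and their part in Ryr1 was not tested. Ryr2 held 68.8% of the family per kb in smooth muscle libraries, and Ryr3 72.2% in progenitor libraries.

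IP3 receptors release calcium when a receptor activates phospholipase C. The 3 genes of this family did not share a direction. Itpr1, the form most abundant in contractile smooth muscle and in Purkinje cells, was at 23.1, 20.7 and 20.2 CPM in progenitor libraries, at 53.03, 52.9 and 46.2 in intermediate libraries, at 26.7, 21.9 and 15.9 in preadipocyte libraries and at 65.8, 61.3 and 58.01 in smooth muscle libraries (ENSMUSG00000030102, chromosome 6, 108213096 to 108551109). Smooth muscle and intermediate libraries lay above the rest, and the smooth muscle excess over intermediate libraries, 0.28 (SE 0.16, adjusted p = 0.21), missed the threshold. Intermediate libraries were 1.25 (SE 0.17, adjusted p = 6.2e-05) above progenitor libraries. Itpr2, the form with the highest affinity for IP3, was at 68.2, 64.8 and 49.8 CPM in progenitor libraries, at 72.9, 68.6 and 73.2 in intermediate libraries, at 84.8, 68.5 and 49.02 in preadipocyte libraries and at 20.3, 20.2 and 19.9 in smooth muscle libraries (ENSMUSG00000030287, chromosome 6, 146108299 to 146502223). The 3 smooth muscle libraries lay together below every other library. The log2 fold changes in smooth muscle were -1.60 (SE 0.18, adjusted p = 3.03e-06) against progenitor, -1.83 (SE 0.18, adjusted p = 1.23e-06) against intermediate and -1.74 (SE 0.18, adjusted p = 5.9e-07) against preadipocyte libraries.

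Itpr3, the form typical of epithelia, was at 3.34, 5.61 and 5.56 CPM in progenitor libraries, at 3.03, 6.09 and 2.54 in intermediate libraries, at 4.21, 2.12 and 2.12 in preadipocyte libraries and at 17.2, 14.7 and 13.99 in smooth muscle libraries. Smooth muscle stood above the rest, by 1.66 (SE 0.33, adjusted p = 0.000667) against progenitor libraries. In that comparison all listed smooth muscle, neuron and mesothelial markers were higher too, as were 5 of the 6 Schwann cell markers. The part of each cell type in the level of Itpr3 was not tested. The family sum of CPM was 122 to 129 in intermediate libraries, above all others, 91.8 to 103 in smooth muscle, 75.6 to 94.6 in progenitor and 67.1 to 116 in preadipocyte libraries, the last 3 of which overlapped. Per kb, Itpr1 held 52.44% ± 0.29 of the family (SD, n = 3) in smooth muscle libraries, 34.43% ± 1.63 in intermediate libraries, 20.14% ± 1.63 in progenitor and 19.51% ± 0.39 in preadipocyte libraries. The difference of smooth muscle from the other 9 libraries was 27.75 points, without overlap (exact two-sided permutation test, p = 0.00455, adjusted p = 0.0182). The test moved libraries freely across populations, so any population lying wholly at an extreme could give this p. Without smooth muscle replicate 1 the difference was 27.82 points, and the 55 arrangements left gave an adjusted p of 0.0727 by the exact permutation test, short of the threshold. Here too the p before adjustment was the smallest that 55 arrangements give, so the lost call cannot show whether the difference depended on that library. Itpr2 held 21.2% in smooth muscle and 60.2% to 75.4% in the other populations, and Itpr3 26.4% and 5.10% to 9.40%.

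**Figure D5:**
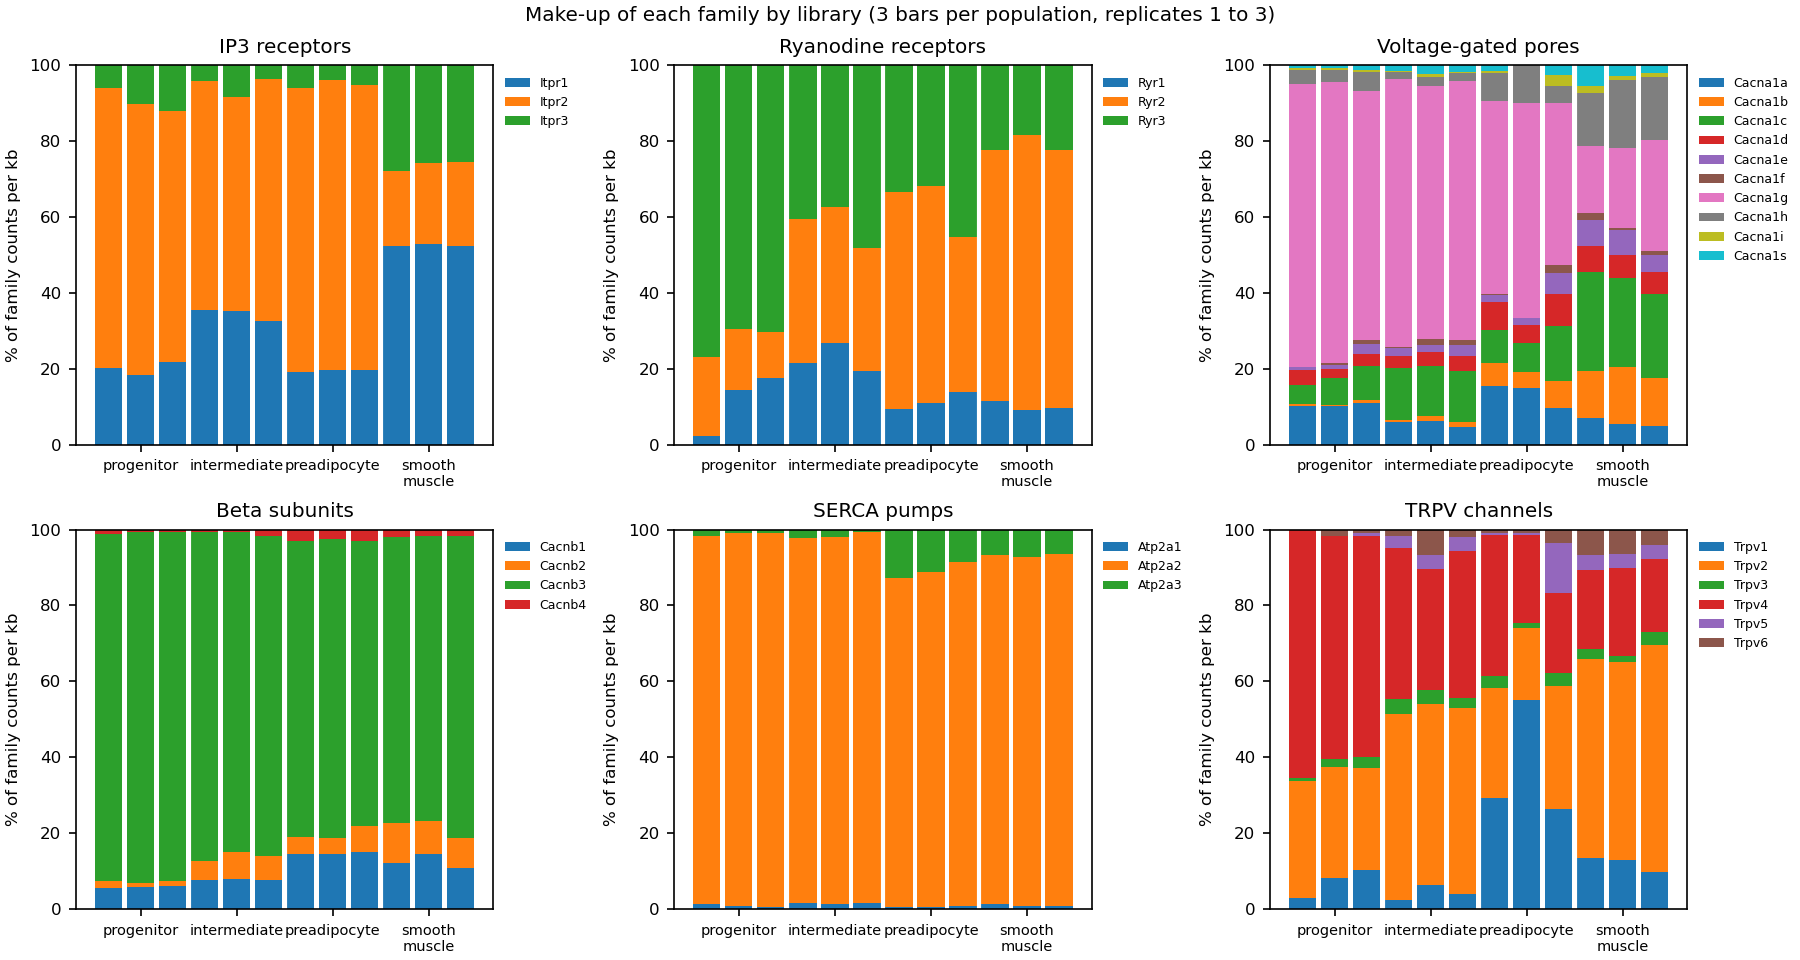
Share of each gene in the counts per kb of exon of its family (%), 1 bar per library and 3 bars per population. In the IP3 receptor panel Itpr1 takes at least 52.26% of each smooth muscle bar and at most 35.49% of any other, and in the ryanodine receptor panel Ryr2 takes the largest part of each smooth muscle bar.

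The STIM sensors report an empty store. Stim2, the more sensitive of the pair, was at 56.7, 62.6 and 63.6 CPM in progenitor libraries, at 113, 105 and 108 in intermediate libraries, at 25.3, 24.3 and 18.7 in preadipocyte libraries and at 49.1, 53.2 and 51.2 in smooth muscle libraries (ENSMUSG00000039156, chromosome 5, 53998499 to 54121057). Intermediate libraries lay above all others and preadipocyte libraries below. The log2 fold change of smooth muscle against intermediate libraries was -1.09 (SE 0.13, adjusted p = 8.98e-06), and intermediate libraries were 0.83 (SE 0.13, adjusted p = 0.000242) above progenitor libraries. Stim1, the main sensor of store-operated entry, was at 45.2, 40.4 and 41.4 CPM in progenitor libraries, at 38.9, 39.5 and 42.9 in intermediate libraries, at 24.4, 19.04 and 24.7 in preadipocyte libraries and at 53.5, 53.6 and 50.6 in smooth muscle libraries. Smooth muscle was 1.21 (SE 0.13, adjusted p = 1.11e-06) above preadipocyte libraries, and its value of 0.31 (SE 0.13, adjusted p = 0.0528) against progenitor libraries was short of the threshold. Stim2 was the more abundant of the pair per kb in every population, with 66.3% to 84.4%, and the share of Stim1 in smooth muscle was not called different (8.89 points, exact two-sided permutation test, adjusted p = 0.133).

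Of the Orai pores that STIM proteins open, Orai3, a mammalian addition to the family, was the most abundant per kb, with 59.1% to 77.0% of the family. It was at 32.99, 35.1 and 23.98 CPM in progenitor libraries, at 22.01, 20.8 and 18.2 in intermediate libraries, at 24.9, 31.7 and 19.3 in preadipocyte libraries and at 16.9, 15.8 and 18.4 in smooth muscle libraries. Smooth muscle lay below 2 of the other populations, with log2 fold changes of -0.85 (SE 0.19, adjusted p = 0.0017) against progenitor and -0.57 (SE 0.19, adjusted p = 0.0149) against preadipocyte libraries. Intermediate libraries were also lower than progenitor libraries, at -0.59 (SE 0.19, adjusted p = 0.0307). With library size alone as the scale the difference of smooth muscle from progenitor libraries was -0.405, with adjusted p = 0.0582. The difference from preadipocyte libraries missed the threshold without preadipocyte replicate 2 (-0.409, adjusted p = 0.0672) and without smooth muscle replicate 2 (-0.533, adjusted p = 0.0518), and that of intermediate from progenitor libraries without progenitor replicate 1 (-0.553, adjusted p = 0.0972). Orai1, the pore of the classical release-activated current, was at 11.9, 12.6 and 14.1 CPM in progenitor libraries, at 9.98, 8.04 and 8.81 in intermediate libraries, at 7.504, 7.62 and 4.57 in preadipocyte libraries and at 8.61, 9.16 and 10.4 in smooth muscle libraries. It was lower in preadipocyte than in progenitor libraries, at -0.97 (SE 0.21, adjusted p = 0.000928), and differed in smooth muscle only from preadipocyte libraries. Orai2 was at 5.47 to 8.23 CPM in progenitor libraries, at 7.93 to 9.098 in intermediate libraries, at 2.92 to 5.24 in preadipocyte libraries and at 6.85 to 9.76 in smooth muscle libraries, with the 3 preadipocyte libraries below the others.

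TRPC channels open downstream of phospholipase C. Trpc1, which often joins other TRPC subunits, was at 11.7, 14.3 and 18.1 CPM in progenitor libraries, at 24.7, 23.4 and 22.2 in intermediate libraries, at 15.01, 17.6 and 13.5 in preadipocyte libraries and at 21.3, 20.2 and 17.3 in smooth muscle libraries. It was higher in intermediate than in progenitor libraries, by 0.67 (SE 0.17, adjusted p = 0.0112), and its 3 comparisons with smooth muscle missed the threshold. Trpc6, opened by diacylglycerol and known in vessel smooth muscle, was at 0.0776 to 0.201 CPM in progenitor libraries, at 0.636 to 1.13 in intermediate libraries, at 0.181 to 0.613 in preadipocyte libraries and at 6.01 to 7.06 in smooth muscle libraries (ENSMUSG00000031997, chromosome 9, 8544142 to 8680741). Smooth muscle was above intermediate libraries by 2.83 (SE 0.36, adjusted p = 1.83e-05) and above preadipocyte libraries by 4.26 (SE 0.39, adjusted p = 1.77e-07). Trpc4 reached 3.30 to 3.94 CPM in smooth muscle libraries and at most 0.891 CPM elsewhere. Trpc5 and Trpc7 reached at most 0.89 and 1.44 CPM in any library.

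The TRPM family is the most varied in what it senses. Trpm7, a channel fused to a kinase that carries magnesium, was the most abundant per kb in all 4 populations. It was at 150, 111 and 147 CPM in progenitor libraries, at 149, 156 and 130.4 in intermediate libraries, at 93.7, 124 and 113 in preadipocyte libraries and at 125, 131 and 103 in smooth muscle libraries, and 1 of its 6 comparisons passed, preadipocyte against intermediate libraries at -0.40 (SE 0.15, adjusted p = 0.0352). Trpm4, opened by calcium but passing sodium and potassium, was at 29.5, 24.4 and 26.8 CPM in progenitor libraries, at 33.7, 32.03 and 31.98 in intermediate libraries, at 5.83, 6.65 and 3.73 in preadipocyte libraries and at 28.1, 28.6 and 21.4 in smooth muscle libraries. The 3 preadipocyte libraries lay below all others, with log2 fold changes of -2.31 (SE 0.20, adjusted p = 9.87e-08) against progenitor and -2.59 (SE 0.20, adjusted p = 2.23e-08) against intermediate libraries.

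Trpm5, a relative of Trpm4 known from taste and other chemosensory cells, was at 25.4, 24.4 and 27.2 CPM in progenitor libraries, at 4.99, 6.01 and 4.63 in intermediate libraries, at 3.78, 5.62 and 4.01 in preadipocyte libraries and at 2.87, 3.82 and 3.53 in smooth muscle libraries (ENSMUSG00000009246, chromosome 7, 143069153 to 143094642). Progenitor libraries stood above all others. The log2 fold changes against progenitor libraries were -2.91 (SE 0.21, adjusted p = 1.94e-08) in smooth muscle, -2.29 (SE 0.20, adjusted p = 8.87e-07) in intermediate and -2.52 (SE 0.20, adjusted p = 4.75e-08) in preadipocyte libraries. Tssc4 shares 3.4% of the exon length of Trpm5, and was at 44.5 to 57.0 CPM in progenitor libraries, 46.9 to 58.9 in intermediate libraries, 46.0 to 51.1 in preadipocyte libraries and 32.1 to 40.9 CPM in smooth muscle libraries. The part of Tssc4 reads in the counts of Trpm5 was not tested.

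The other TRPM genes were low. Trpm6, a magnesium channel of kidney and gut, was at 0.0776 to 0.547 CPM in progenitor libraries, at 0.802 to 1.05 in intermediate libraries, at 0.242 to 0.947 in preadipocyte libraries and at 2.402 to 5.95 in smooth muscle libraries. Trpm2, a channel gated by ADP-ribose, was at 0.889 to 1.81 CPM in progenitor libraries, at 1.804 to 3.45 in intermediate libraries, at 0.423 to 2.23 in preadipocyte libraries and at 4.17 to 5.85 in smooth muscle libraries. Trpm3, a heat and steroid sensor, was at 2.61 to 2.74 CPM in progenitor libraries, at 1.96 to 3.98 in intermediate libraries, at 2.95 to 3.78 in preadipocyte libraries and at 3.18 to 4.45 in smooth muscle libraries, and no comparison passed. Trpm1 and the cold sensor Trpm8 reached at most 2.40 and 1.51 CPM in any library.

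Of the TRPV channels, Trpv2, which reaches the membrane under growth factors or stretch, was at 6.75, 6.98 and 6.23 CPM in progenitor libraries, at 9.09, 9.17 and 7.995 in intermediate libraries, at 3.89, 3.08 and 3.01 in preadipocyte libraries and at 19.9, 21.2 and 21.8 in smooth muscle libraries. Smooth muscle was above all others and preadipocyte libraries below, with 2.65 (SE 0.18, adjusted p = 5.73e-09) between them. Trpv4, a sensor of swelling and shear, was at 13.1, 12.7 and 12.3 CPM in progenitor libraries, at 6.68, 5.56 and 5.72 in intermediate libraries, at 4.54, 3.44 and 1.78 in preadipocyte libraries and at 7.25, 8.52 and 6.36 in smooth muscle libraries (ENSMUSG00000014158, chromosome 5, 114622152 to 114658421). Progenitor libraries were highest, and the log2 fold changes against them were -0.78 (SE 0.25, adjusted p = 0.0168) in smooth muscle, -1.08 (SE 0.26, adjusted p = 0.00675) in intermediate and -1.96 (SE 0.27, adjusted p = 1.37e-05) in preadipocyte libraries. By library size alone the difference of smooth muscle was -0.337, with adjusted p = 0.272. Without smooth muscle replicate 3 it was -0.71, with adjusted p = 0.0543, and with only genes of at least 5 CPM in 3 libraries tested it was -0.585, with adjusted p = 0.0557. Trpv1, the capsaicin receptor of pain neurons, was at 0.543 to 1.94 CPM in progenitor libraries, at 0.356 to 0.977 in intermediate libraries, at 2.005 to 7.37 in preadipocyte libraries and at 2.897 to 4.26 in smooth muscle libraries. It was higher in preadipocyte than in intermediate libraries by 2.70 (SE 0.55, adjusted p = 0.000547), and its levels in preadipocyte and smooth muscle libraries overlapped. All 8 neuron markers were higher in that comparison too, and the part of neuron RNA in the level of Trpv1 was not tested. The epithelial calcium channels Trpv5 and Trpv6 reached at most 1.08 and 2.29 CPM in any library, and Trpv3, a skin heat sensor, 1.70 CPM.

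SERCA pumps return calcium to the store. Atp2a2, the form of heart and smooth muscle, was the most abundant of the pumps per kb, at 53.9, 60.6, 60.2 and 71.1 CPM per kb of exon in progenitor, intermediate, preadipocyte and then smooth muscle libraries (ENSMUSG00000029467, chromosome 5, 122453513 to 122502225). It was at 269, 316 and 399 CPM in progenitor libraries, at 388, 384 and 333 in intermediate libraries, at 319.8, 464 and 315 in preadipocyte libraries and at 450.2, 456 and 390.5 in smooth muscle libraries. Libraries of all populations overlapped except smooth muscle and intermediate ones, and no comparison passed, the largest being 0.40 (SE 0.17, adjusted p = 0.0593) for smooth muscle against progenitor libraries. Atp2a3, known from blood cells, endothelium and secretory epithelia, was at 4.35, 2.74 and 3.08 CPM in progenitor libraries, at 8.199, 6.84 and 1.73 in intermediate libraries, at 41.1, 51.2 and 25.5 in preadipocyte libraries and at 27.97, 30.9 and 23.7 in smooth muscle libraries (ENSMUSG00000020788, chromosome 11, 72961169 to 72993044). Preadipocyte and smooth muscle libraries lay above both others and overlapped each other. Preadipocyte libraries were 3.54 (SE 0.40, adjusted p = 1.88e-06) above progenitor and 2.80 (SE 0.38, adjusted p = 1.16e-05) above intermediate libraries. Endothelial markers summed to 127.5 to 147.4 CPM in progenitor libraries, 39.7 to 72.81 in intermediate libraries, 40.05 to 92.69 in preadipocyte libraries and 57.96 to 87.59 CPM in smooth muscle libraries. Of the 6, 4 were higher and 1 lower in preadipocyte than in progenitor libraries, and 5 higher and 1 lower in smooth muscle than in progenitor libraries. Leukocyte markers summed to 37.49 to 47.05, 59.71 to 76.31, 20.19 to 32.07 and 34.86 to 49.81 CPM in the same order. Of these 7, 2 were higher and 1 lower in preadipocyte and 4 higher and 2 lower in smooth muscle than in progenitor libraries. Red blood cell genes were highest in preadipocyte libraries. The part of these cells in the level of Atp2a3 was not tested. Atp2a1, the fast skeletal muscle form, was at 1.21 to 2.096 CPM in progenitor libraries, at 2.82 to 3.56 in intermediate libraries, at 1.19 to 1.34 in preadipocyte libraries and at 2.19 to 3.37 in smooth muscle libraries, and shares 21.9% of its exon length with Rabep2, itself at 9.53 to 24.0 CPM over the 12 libraries.

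PMCA pumps expel calcium. Atp2b1, found in nearly all cells, held 68.1% to 84.4% of the family per kb and was at 217, 214 and 232 CPM in progenitor libraries, at 166, 159 and 152 in intermediate libraries, at 80.7, 82.98 and 80.7 in preadipocyte libraries and at 198, 207 and 220.2 in smooth muscle libraries. The preadipocyte libraries lay below all others, and intermediate libraries were lower than progenitor libraries, at -0.47 (SE 0.10, adjusted p = 0.00433). Atp2b4, found in smooth muscle and in the red cell membrane, was at 28.9, 32.4 and 28.7 CPM in progenitor libraries, at 54.4, 50.3 and 59.6 in intermediate libraries, at 11.7, 8.22 and 35.4 in preadipocyte libraries and at 58.96, 51.3 and 69.5 in smooth muscle libraries. Its high preadipocyte value came from replicate 3, the library with the most red blood cell RNA, whose part in it was not tested. Atp2b2, best known from neurons and the hair cells of the ear, was at 0.854, 0.547 and 1.34 CPM in progenitor libraries, at 2.23, 2.86 and 2.09 in intermediate libraries, at 2.48, 2.18 and 1.95 in preadipocyte libraries and at 13.2, 16.6 and 16.04 in smooth muscle libraries (ENSMUSG00000030302, chromosome 6, 113743831 to 114042613). Smooth muscle stood above progenitor libraries by 4.05 (SE 0.29, adjusted p = 1.89e-08) and above intermediate libraries by 2.67 (SE 0.26, adjusted p = 1.16e-06). Atp2b3, known from the brain, was at 0.402 to 1.03 CPM in progenitor libraries, at 0.454 to 0.802 in intermediate libraries, at 0.111 to 0.2699 in preadipocyte libraries and at 0.989 to 2.099 in smooth muscle libraries.

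The members were also set beside 7 lists of partner genes, whose 99 entries were all in the table. For each list the 3 genes with the smallest p in the F test are named. Over all genes tested, the shares higher and lower in smooth muscle were 30.5% and 23.6% against progenitor, 15.7% and 13.1% against intermediate and 40.7% and 25.9% against preadipocyte libraries, with median log2 fold changes of 0.09, 0.10 and 0.35. The corresponding shares were 14.1% and 13.4% for intermediate against progenitor, 25.1% and 25.9% for preadipocyte against progenitor and 26% and 31.1% for preadipocyte against intermediate libraries. For the smooth muscle comparisons, list shares follow each count in brackets and are to be read beside these. The other comparisons are given as counts alone, out of the number tested in each list. Store proteins that buffer calcium or bind the pumps and release channels came out mostly higher in smooth muscle. Of the 18 tested, 12 were higher and 2 lower in smooth muscle than in progenitor libraries (66.7% and 11.1%), 10 and 2 against intermediate (55.6% and 11.1%), and 11 and 3 against preadipocyte libraries (61.1% and 16.7%), with median log2 fold changes of 1.62, 1.04 and 1.61. Intermediate libraries had 5 of them higher and 1 lower than progenitor libraries, and the counts were 4 and 5 for preadipocyte against progenitor and 3 and 6 for preadipocyte against intermediate libraries. Jph2, which ties the store to the plasma membrane, was at 1.12 ± 0.205 CPM in progenitor libraries, at 15.3 ± 1.15 in intermediate libraries, at 1.63 ± 0.833 in preadipocyte libraries and at 73.96 ± 7.22 in smooth muscle libraries (SD, n = 3). Mrvi1, a partner of Itpr1 in the cyclic GMP pathway, was at 4.62 ± 1.34 CPM in progenitor libraries, at 9.18 ± 2.19 in intermediate libraries, at 3.43 ± 0.2298 in preadipocyte libraries and at 62.3 ± 8.91 in smooth muscle libraries. Hrc, a calcium buffer inside the store, was at 0.336 ± 0.133 CPM in progenitor libraries, at 0.586 ± 0.123 in intermediate libraries, at 0.402 ± 0.176 in preadipocyte libraries and at 7.55 ± 1.84 in smooth muscle libraries.

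Regulators of store-operated entry had shares near those of all genes tested against progenitor libraries. Of the 11 tested, 3 were higher and 3 lower in smooth muscle than in progenitor libraries (27.3% and 27.3%), 2 and 1 against intermediate (18.2% and 9.09%), and 7 and 2 against preadipocyte libraries (63.6% and 18.2%), with median log2 fold changes of -0.22, -0.21 and 0.58. In intermediate libraries there were 4 of them higher and 1 lower than progenitor libraries, and the counts were 2 and 5 for preadipocyte against progenitor and 1 and 7 for preadipocyte against intermediate libraries. Septin4, a septin at the plasma membrane, was at 3.62 ± 0.237 CPM in progenitor libraries, at 8.15 ± 1.62 in intermediate libraries, at 4.24 ± 0.901 in preadipocyte libraries and at 14.2 ± 1.39 in smooth muscle libraries (SD, n = 3). Ahnak, a giant scaffold protein, was at 647 ± 46.5 CPM in progenitor libraries, at 486 ± 22.98 in intermediate libraries, at 200.5 ± 64.7 in preadipocyte libraries and at 408 ± 32.02 in smooth muscle libraries. Homer1, which tethers IP3 receptors to other proteins, was at 25.1 ± 3.26 CPM in progenitor libraries, at 53.1 ± 5.55 in intermediate libraries, at 26.9 ± 0.126 in preadipocyte libraries and at 47.1 ± 8.92 in smooth muscle libraries. For the sodium-calcium exchangers the counts were as follows. Of the 9 tested, 4 were higher and 1 lower in smooth muscle than in progenitor libraries (44.4% and 11.1%), 4 and 1 against intermediate (44.4% and 11.1%), and 5 and 1 against preadipocyte libraries (55.6% and 11.1%), with median log2 fold changes of 1.07, 1.05 and 1.82. The intermediate libraries had 2 of them higher and 2 lower than progenitor libraries, and the counts were 1 and 2 for preadipocyte against progenitor and 1 and 4 for preadipocyte against intermediate libraries. Slc24a4, a potassium-dependent exchanger, was at 0.8602 ± 0.681 CPM in progenitor libraries, at 1.62 ± 0.251 in intermediate libraries, at 0.5995 ± 0.213 in preadipocyte libraries and at 17.8 ± 4.15 in smooth muscle libraries. Slc8b1, the exchanger of mitochondria, was at 31.9 ± 3.77 CPM in progenitor libraries, at 18.1 ± 1.304 in intermediate libraries, at 9.51 ± 4.49 in preadipocyte libraries and at 5.83 ± 0.824 in smooth muscle libraries. Slc8a3, an exchanger of brain and skeletal muscle, was at 1.71 ± 0.3696 CPM in progenitor libraries, at 2.21 ± 0.662 in intermediate libraries, at 1.75 ± 0.448 in preadipocyte libraries and at 6.95 ± 0.946 in smooth muscle libraries.

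The mitochondrial uniporter list includes the VDAC channels of the outer membrane. Of the 10 tested, 2 were higher and 5 lower in smooth muscle than in progenitor libraries (20% and 50%), 3 and 2 against intermediate (30% and 20%), and 2 and 6 against preadipocyte libraries (20% and 60%), with median log2 fold changes of -0.26, -0.05 and -0.49. Of the same genes, intermediate libraries had 0 of them higher and 3 lower than progenitor libraries, and the counts were 4 and 2 for preadipocyte against progenitor and 5 and 1 for preadipocyte against intermediate libraries. All 3 VDAC genes were highest in preadipocyte libraries. Vdac1 was at 146 ± 8.96 CPM in progenitor libraries, at 116 ± 11.4 in intermediate libraries, at 356 ± 39.5 in preadipocyte libraries and at 153 ± 12.9 in smooth muscle libraries (SD, n = 3). Vdac2 was at 167 ± 10.6 CPM in progenitor libraries, at 137 ± 10.2 in intermediate libraries, at 405 ± 33.4 in preadipocyte libraries and at 154 ± 2.09 in smooth muscle libraries, and Vdac3 at 209 ± 13.1 CPM in progenitor libraries, at 159.8 ± 11 in intermediate libraries, at 391 ± 40.2 in preadipocyte libraries and at 155 ± 8.39 in smooth muscle libraries. Genes of phospholipase C enzymes, which make IP3, came next, together with the G protein genes Gnaq and Gna11. Of the 12 tested, 6 were higher and 0 lower in smooth muscle than in progenitor libraries (50% and 0%), 2 and 1 against intermediate (16.7% and 8.33%), and 7 and 1 against preadipocyte libraries (58.3% and 8.33%), with median log2 fold changes of 0.57, 0.17 and 0.78. Here intermediate libraries had 5 of them higher and 0 lower than progenitor libraries, and the counts were 2 and 6 for preadipocyte against progenitor and 1 and 7 for preadipocyte against intermediate libraries. Plcb4 was at 26.3 ± 0.978 CPM in progenitor libraries, at 63.4 ± 7.17 in intermediate libraries, at 12.6 ± 2.44 in preadipocyte libraries and at 68.7 ± 13.8 in smooth muscle libraries. Plce1, a phospholipase C driven by Ras, was at 43.5 ± 1.51 CPM in progenitor libraries, at 49.9 ± 5.08 in intermediate libraries, at 14.7 ± 3.58 in preadipocyte libraries and at 79.2 ± 1.13 in smooth muscle libraries. Plcb1 alone of the 3 was highest in preadipocyte libraries, at 22.3 ± 3.02 CPM in progenitor libraries, at 23.3 ± 2.55 in intermediate libraries, at 59.5 ± 16.9 in preadipocyte libraries and at 34.1 ± 4.88 in smooth muscle libraries.

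Calmodulin, its kinases, calcineurin and NFAT genes carry the calcium signal onward, and their shares against progenitor libraries also lay near those of all genes tested. Of the 21 tested, 7 were higher and 6 lower in smooth muscle than in progenitor libraries (33.3% and 28.6%), 5 and 7 against intermediate (23.8% and 33.3%), and 16 and 1 against preadipocyte libraries (76.2% and 4.76%), with median log2 fold changes of -0.02, 0.01 and 0.91. Intermediate libraries again had 8 of them higher and 1 lower than progenitor libraries, and the counts were 1 and 12 for preadipocyte against progenitor and 0 and 16 for preadipocyte against intermediate libraries. Mylk, the kinase that starts smooth muscle contraction, was at 9.77 ± 1.66 CPM in progenitor libraries, at 41.4 ± 8.33 in intermediate libraries, at 13.6 ± 3.14 in preadipocyte libraries and at 258 ± 5.67 in smooth muscle libraries (SD, n = 3). Rcan2, a regulator of calcineurin, was at 2.99 ± 0.836 CPM in progenitor libraries, at 9.38 ± 3.51 in intermediate libraries, at 4.32 ± 1.67 in preadipocyte libraries and at 117 ± 10.03 in smooth muscle libraries. Camk4, a calmodulin kinase of the nucleus, was at 28.9 ± 1.24 CPM in progenitor libraries, at 38 ± 3.27 in intermediate libraries, at 4.64 ± 1.14 in preadipocyte libraries and at 12.6 ± 2.31 in smooth muscle libraries. The last list held other calcium-permeable or calcium-activated channels. Of the 15 tested, 7 were higher and 5 lower in smooth muscle than in progenitor libraries (46.7% and 33.3%), 7 and 3 against intermediate (46.7% and 20%), and 11 and 2 against preadipocyte libraries (73.3% and 13.3%), with median log2 fold changes of 0.60, 1.01 and 1.03. For this list intermediate libraries had 7 of them higher and 2 lower than progenitor libraries, and the counts were 2 and 9 for preadipocyte against progenitor and 3 and 10 for preadipocyte against intermediate libraries. Ano1, a chloride channel opened by calcium, was at 9.03 ± 3.03 CPM in progenitor libraries, at 18.1 ± 4.86 in intermediate libraries, at 9.24 ± 3.16 in preadipocyte libraries and at 201 ± 16.4 in smooth muscle libraries. Kcnmb1 and Kcnma1, which form the large-conductance potassium channel of smooth muscle, also had their highest means there. Kcnmb1 was at 0.412 ± 0.257 CPM in progenitor libraries, at 1.42 ± 0.874 in intermediate libraries, at 0.654 ± 0.391 in preadipocyte libraries and at 41.5 ± 2.52 in smooth muscle libraries. Kcnma1 was at 5.32 ± 1.23 CPM in progenitor libraries, at 11.3 ± 1.505 in intermediate libraries, at 5.07 ± 1.34 in preadipocyte libraries and at 45.8 ± 1.81 in smooth muscle libraries.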

How the data were processed

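The authors deposited whole-number counts per gene and library, and these raw counts were used here with no further scaling by the authors. STAR 2.5.2a, DESeq2 1.26.0 and mm10 are named in the submitters' processing notes. Poly(A) RNA was amplified from low input by SMART-Seq v4, per the labels' protocols. The counting tool, its annotation and whether it used strand were not given in the sources used here. Other deposited tables were not used here. The values of 1 gene are not reported here. Genes, partner lists and markers were chosen with earlier results of these data known. Positions and exon lengths are from GENCODE M21 on mm10.

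After filterByExpr, 21285 genes were scaled by TMM and tested in edgeR 4.0.16 (R 4.3.3) with glmQLFit and glmQLFTest, in 1 model of 12 libraries with a coefficient per population. Adjustment followed Benjamini and Hochberg over all genes tested, with calls at 0.05. The SE of a fold change is the one implied by the F statistic. Levels are CPM after TMM scaling unless said otherwise. Shares within families use counts per kb of exon and exact permutation tests over libraries. These tests treat the 9 libraries outside smooth muscle as exchangeable, although they come from different populations. No replicate pair was the same library, as their counts differed by more than sampling noise. The tests were tried on simulated counts.

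Genes with a population mean of at least 10 CPM are given by library, and the others by their range. Fold changes with SE and adjusted p follow for up to 5 called genes per direction and comparison, the largest among genes at 10 CPM or more in the higher population. Others were added where a result turned on them. Alternatives were DESeq2-type size factors, library size alone, DESeq2 1.42.0, limma-voom (limma 3.58.1), no filter, at least 5 CPM in 3 libraries, a replicate block, an even background subtracted, each library left out and the compared populations alone.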

Additional observations from a re-analysis of the deposited data

How the results depend on the processing

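Over 966 alternative values of the 46 fold changes named by the rule, 958 kept direction and call, 8 kept direction and lost the call, and 0 reversed; the 8 concern Orai3, Cacna1g and Trpv4. With at least 5 CPM in 3 libraries, which leaves 38 members tested, 32 were called for smooth muscle against preadipocyte (49 in the report) and 37 for any difference (57). With library size alone, 30 were higher in smooth muscle than in each other population (19), and other settings gave 15 to 23. That scale also raised the number of all genes tested that were called higher in smooth muscle. Leaving out 1 library gave 14 to 22 there, with the low end without intermediate replicate 1 and the high end without preadipocyte replicate 3. The count called ranged from 52 to 57 for any difference, 40 to 48, 22 to 31 and 43 to 51 for smooth muscle against progenitor, intermediate and preadipocyte, 23 to 28 for preadipocyte against progenitor, 16 to 31 for intermediate against progenitor and 27 to 40 for preadipocyte against intermediate libraries.

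Replicate numbers were not taken to pair the samples, as not every pair of libraries correlated over 0.1: deviations correlated at -0.163 to 0.207 over 18 pairs, 6 of them over 0.1, among these all 3 pairs of replicate 3 in progenitor, intermediate and preadipocyte libraries, and 4 of 12 libraries lay closest to their own number. With a replicate block the counts were 54, 44, 27, 52, 26, 25 and 34 in the order just given, and 19 higher than each, 18 of them shared. Under the replicate block, with 64 arrangements, the share differences of 27.75 points for Itpr1, 13.63 for Cacna1c and 4.80 for Cacnb2 had exact permutation adjusted p of 0.0625, 0.0625 and 0.0833. For Itpr1 and Cacna1c the p before adjustment was the smallest that 64 arrangements give. Leaving out 1 library, the share differences ranged from 26.97 to 29.10 (Itpr1), 12.53 to 14.59 (Cacna1c), 4.14 to 5.35 (Cacnb2), 5.48 to 7.56 (Orai1), -12.05 to -8.04 (Cacna2d1), 7.60 to 10.73 (Stim1), -10.19 to -7.33 (Atp2b1) and -3.18 to -1.68 points (Atp2a2). Without smooth muscle replicate 1 the 55 arrangements left Itpr1, Cacna1c and Cacnb2 uncalled, at exact permutation adjusted p of 0.0727, 0.0727 and 0.182. For Itpr1 and Cacna1c the p before adjustment was again the smallest that the arrangements give. Orai1 without progenitor replicate 3 (7.56), Cacna2d1 without preadipocyte replicate 1 (-11.82) and Stim1 without preadipocyte replicate 3 (10.73) were called; the cause was not tested. Members near the receptor gene density, 25 of 64 in smooth muscle, limit what depth can show.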
